A study of Homo sapiens with 4 samples.

Results

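RAB and ARF GTPases, the coat proteins COPI and COPII and the TRAPP tether were examined in the human glioblastoma line LN229, an established cell line. The genes were chosen by name. They are protein-coding genes whose symbol in the platform annotation is RAB, SEC, COP (A, B, E, G or Z), TRAPPC or ARF followed by the numbers and letters of each family, on probe sets that name a single gene. This gave 46 of 7749 coding genes, each read from its probe set of highest mean. The probe sets covered only part of the chromosomes, so no family here is complete. They comprised 26 GTPases, 15 coat and tether genes, and 5 genes that carry a SEC name without belonging to a coat. Those 5 are SEC62 and SEC63 of the endoplasmic reticulum (ER) translocon and the SNAREs SEC22A, SEC22B and SEC22C, and they were kept apart.

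The cells grew in DMEM with serum and gentamycin and received either no drug or 5 µM ATO (usually arsenic trioxide, although the labels do not spell it out) over 6 h. Each condition gave 1 sample of total RNA and 1 of polysomal RNA, which is mRNA bound to several ribosomes and isolated on a sucrose gradient. The 4 groups therefore hold 1 array sample each, and all 4 came from cells lysed with cycloheximide, a drug that freezes ribosomes on mRNA. Technical triplicates had been pooled into each sample. The values below accordingly carry no replicate spread and no p-value, and their precision is limited by how few arrays there are.

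Values are the deposited log2 values, and differences are polysomal minus total or ATO minus untreated on that scale. Folds are given on that scale and may differ from folds of RNA, because 406 probe sets lay above 16, beyond what a 16-bit scanner can record as plain intensity. A gene was retained, and set against a threshold of 1.5-fold (0.585 in log2), when its mean over the samples reached 7.80, the median of coding genes. That left 3876 retained genes, 33 of them members: 17 GTPases, 11 coat and tether genes and the 5 translocon and SNARE genes. Of the glial, glioma and mesenchymal genes checked, 9 of 11 reached that level, while BCAN and CHI3L1 did not, and 0 of 6 blood and 0 of 4 epithelial genes did. Of 3 neuron genes GAD1 alone reached it. For the ATO total sample the title was followed, since the source name contradicts it and reads polysomal. Across probe sets its correlation was 0.991 with the untreated total sample and 0.987 with the ATO polysomal sample. Comparisons in untreated cells do not use that sample.

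Cargo leaves the ER in vesicles shaped by the COPII coat and returns from the Golgi in vesicles shaped by COPI. Small GTPases switch these steps on. SAR1 and the ARFs place the coats on membranes, and each RAB, when bound to GTP, marks a compartment and recruits tethers, motors and SNAREs that bring a vesicle to its target and fuse it. TRAPP is both a tether and an activator of RAB1, and the translocon passes new secretory proteins into the ER.

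Coat subunits stood lower in polysomal than in total RNA in both untreated and ATO cells, whereas the GTPases as a class lay near the median of all genes. Of the 8 COPI and COPII subunits retained, 7 lay below 0 in both states, where 23.9% of all retained genes did. SEC13 was the exception. None of these 8 turned its sign under the alternative settings. The 17 GTPases had medians of 0.21 untreated and 0.17 with ATO, beside 0.19 and 0.17 over all retained genes. The 11 coat and tether genes had medians of -0.32 and -0.37, and so stood at -0.51 and -0.54 once the median of all retained genes was subtracted. The GTPase median thus stood 0.53 above the coat and tether median in untreated cells and 0.54 above it in ATO cells. These are descriptions of 1 sample per group, and genes are not replicates.

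Over 1.5-fold lower in polysomal RNA were 2 of 33 members in untreated cells, where 4.72% of all retained genes were, and 3 of 33 in ATO cells, where 3.92% were. All of these were coat genes. Over 1.5-fold higher were 3 of 33 in untreated cells, beside 16.2% of all genes, and 3 of 33 in ATO cells, beside 14.7%. The 3 higher members made 9.09% of the 33 in each state, under the background share. The lower ones made 6.06% and 9.09%, each from 2 or 3 genes.

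**Figure D1:**
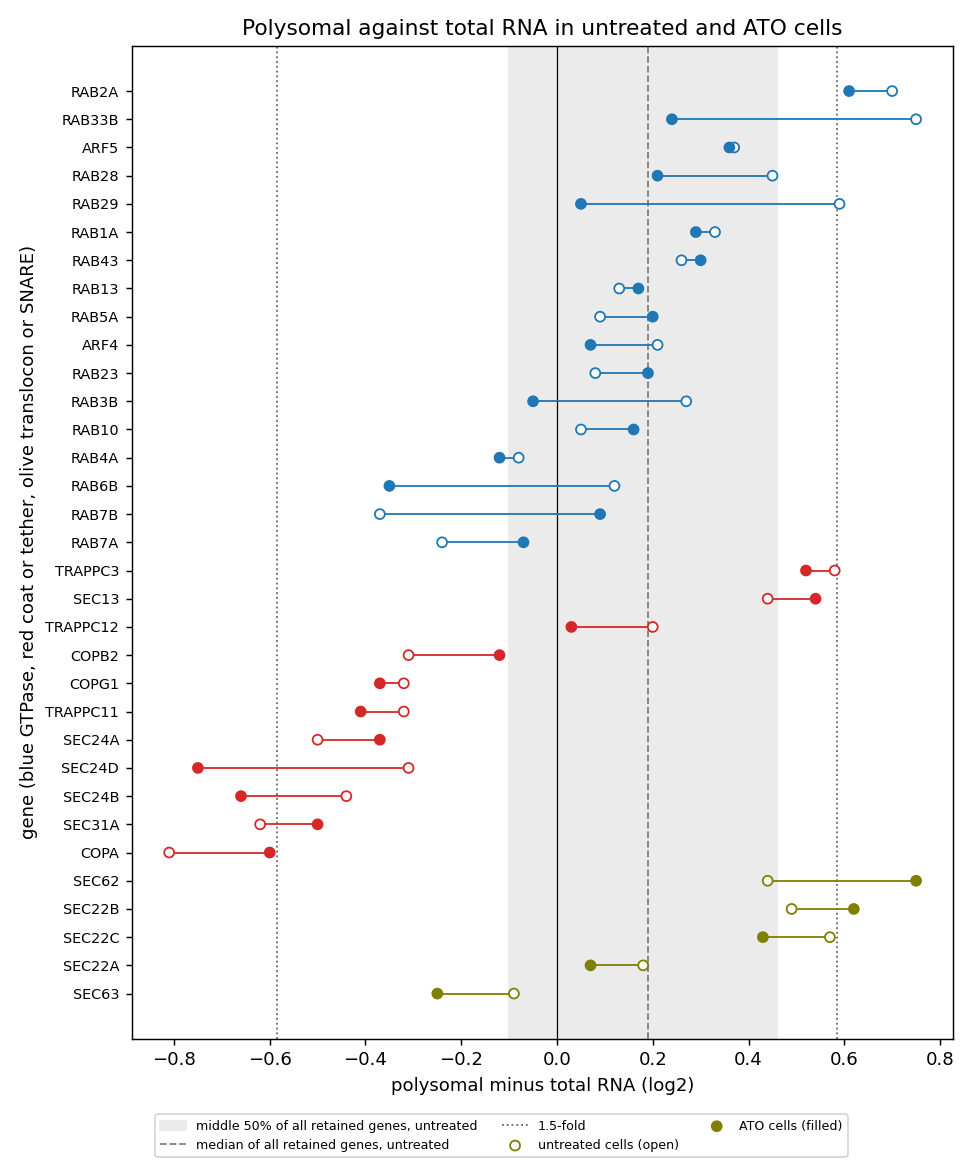
Polysomal minus total RNA (log2, horizontal axis) of the 33 retained genes, with open points for untreated and filled points for ATO cells. The band and dashed line show the interquartile range and median (0.19) of all retained genes in untreated cells, and dotted lines mark 1.5-fold. All coat subunits except SEC13 lie left of 0, from -0.12 for COPB2 with ATO to -0.81 for COPA untreated.

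The 3 COPI genes retained were low in both states. COPA encodes the alpha subunit of the coatomer cage. It had 13.51 and 13.69 in polysomal RNA of untreated and ATO cells, against 14.32 and 14.29 in their total RNA. Both polysomal samples were below both total samples, by 1.75-fold in untreated and 1.52-fold in ATO cells. Only 1.63% of retained genes stood lower in untreated cells and 3.79% in ATO cells. COPB2, the beta-prime subunit that binds cargo retrieval signals, had 12.12 and 12.37 in untreated and ATO polysomal RNA, and 12.43 and 12.49 in untreated and ATO total RNA. Its differences were -0.31 and -0.12. COPG1, the gamma subunit, stood at -0.32 and -0.37.

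Among COPII genes the cargo-binding and cage subunits were low, and SEC13 was high. SEC31A, which forms the outer cage, had 12.40 and 12.57 in untreated and ATO polysomal RNA, and 13.02 and 13.07 in untreated and ATO total RNA. It was 1.54-fold lower on polysomes in untreated cells (-0.62), with -0.50 in ATO cells. SEC13, its partner in the cage and also a component of the nuclear pore, had 13.32 and 13.28 in untreated and ATO polysomal RNA against 12.88 and 12.74 in total RNA. Its polysomal values were thus above its total values, by 0.44 and 0.54. Partners in the same cage thus lay on opposite sides of 0 in both states.

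SEC24 proteins form the inner coat and choose the cargo. SEC24B had 9.93 and 9.83 in untreated and ATO polysomal RNA and 10.37 and 10.49 in total RNA, with differences of -0.44 and -0.66. SEC24D had 12.21 and 12.15 in polysomal and 12.52 and 12.90 in total RNA, with differences of -0.31 and -0.75. SEC24A stood at -0.50 and -0.37. All 3 SEC24 genes retained were below 0 in both states. In ATO cells SEC24B and SEC24D passed 1.5-fold, at 1.58-fold and 1.68-fold lower. SEC16B, which organises ER exit sites, did not reach the filter level in any sample, with values of 2.87 to 3.30.

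The TRAPP subunits went different ways. TRAPPC3, a core subunit, had 12.36 and 12.20 in untreated and ATO polysomal RNA against 11.78 and 11.68 in total RNA, so that polysomal exceeded total by 0.58 and 0.52. The first of these lies just under the 1.5-fold threshold. TRAPPC12, a subunit of the TRAPPIII form of the complex, had 11.15 and 11.17 in polysomal and 10.95 and 11.14 in total RNA, with differences of 0.20 and 0.03. TRAPPC11, another TRAPPIII subunit, stood at -0.32 and -0.41. The sign of TRAPPC12 in ATO cells turned with the scaling, to -0.14 when each sample was centred on its median. TRAPPC13, TRAPPC9 and TRAPPC3L, with means of 5.84, 5.55 and 4.90, were under the filter.

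The upstream sequences of these genes were read from RefSeq promoter windows of GRCh38.p14, from 250 bases before to 50 bases after the annotated start. Windows were found for 39 of 46 members and 28 of the 33 retained. The letters TGACGTGG, an element bound by factors of the unfolded protein response, were searched on both strands. They occurred in 3 of 10 coat and tether windows (COPA, COPB2 and SEC24A), in 1 of 5 translocon and SNARE windows (SEC62) and in 0 of 13 GTPase windows. SEC16B, below the filter, also held them. Of windows of all retained genes 0.834% held them, and of all 27305 windows 0.795%. The windows of COPG1, SEC31A and SEC24B, coat genes also low in polysomal RNA, held no match, and SEC24D had no window. A link of the match to polysomal position was not tested. The stretches around the matches are shown because they lie in coat genes that share the low polysomal position and in SEC62, which does not. Each is on the gene's strand, 5′ to 3′, with the match in capitals and 15 bases on either side.
COPA, chr1:160343223-160343260, minus strand: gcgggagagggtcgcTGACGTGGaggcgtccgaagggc
COPB2, chr3:139389821-139389858, minus strand: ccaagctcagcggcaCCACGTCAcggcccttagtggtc
SEC24A, chr5:134648591-134648628, plus strand: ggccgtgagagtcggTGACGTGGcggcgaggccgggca
SEC62, chr3:169966775-169966812, plus strand: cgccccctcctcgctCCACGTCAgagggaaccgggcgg

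In COPA the match begins at base 6 of the annotated transcript. In COPB2 it begins 163 bases, in SEC24A 179 bases and in SEC62 17 bases before the start, and in COPB2 and SEC62 it lies on the opposite strand and so reads CCACGTCA. COPB2 has a further match after its start. The window of SEC24A also holds the E-box CACGTG and the antioxidant response element core TGACNNNGC, the latter overlapping the match shown. The E-box was found in 3 of 13 GTPase and 1 of 10 coat and tether windows, beside 10.3% of windows of retained genes. TGACNNNGC was in 1 of 13 and 3 of 10, beside 14.7%. The ER stress element and the cAMP response element TGACGTCA were in no window of a retained member, beside 0.154% and 3.55% of windows of retained genes. A start of C followed by 4 pyrimidines is the pattern of terminal oligopyrimidine mRNAs, whose translation follows mTOR. Such letters stood at the annotated start of RAB4A, RAB13, SEC24B and SEC63. That is 4 of 28 members, beside 5.38% of windows of retained genes. These 4 stood at -0.08, 0.13, -0.44 and -0.09 in polysomal against total RNA of untreated cells. A match is a description of letters and not of a bound factor.

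GTPases of the ER-to-Golgi route and the Golgi had a median of 0.33 untreated and 0.29 with ATO, and ranged from RAB2A and RAB33B, the highest GTPases in untreated cells, to RAB6B, the lowest in ATO cells. RAB2A, which acts at the ER-to-Golgi intermediate compartment, had 14.18 and 14.09 in untreated and ATO polysomal RNA and 13.48 in each total sample. Both polysomal samples were above both total samples, by 1.62-fold and 1.53-fold. RAB2A was the only one of the 33 members over 1.5-fold higher in both states, where 327 of 3876 retained genes were, a larger share. With centred samples its differences were 0.51 and 0.44, under the threshold in both states. RAB33B, a Golgi RAB that binds the autophagy protein ATG16L1, had 8.53 and 8.19 in untreated and ATO polysomal RNA and 7.78 and 7.95 in total RNA. It was 1.68-fold higher on polysomes in untreated cells (0.75), with 0.24 in ATO cells. Its untreated total value lay under the filter level.

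RAB1A, the switch for ER-to-Golgi transport that TRAPP activates, stood at 0.33 and 0.29. Its values, 16.27 to 16.65, exceed 16 and lie in the range where the scale is not plain intensity. RAB43, also of the ER and Golgi, had 8.16 and 7.92 in untreated and ATO polysomal RNA and 7.90 and 7.62 in total RNA, so its differences were 0.26 and 0.30. RAB6B, a RAB6 form known from neurons that works in Golgi-to-ER transport, had 9.48 and 9.19 in polysomal and 9.36 and 9.54 in total RNA. Its differences had opposite signs, 0.12 untreated and -0.35 with ATO. With centred samples the untreated value became -0.07.

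By median, endosomal RABs stood lower than those of the ER and Golgi. Their median was -0.16 over 4 genes in untreated and 0.01 in ATO cells, against 0.33 and 0.29 over the 5 ER-to-Golgi and Golgi RABs. In ATO cells the order did not hold gene by gene, since RAB6B (-0.35) lay below RAB4A (-0.12), the lowest endosomal RAB. RAB7A, the RAB of late endosomes and lysosomes, had 17.68 and 17.97 in untreated and ATO polysomal RNA and 17.92 and 18.04 in total RNA. Its differences were -0.24 and -0.07, and its values exceed 16, so they lie in the range where the scale is not plain intensity. With quantile normalization its ATO difference became 0.13.

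RAB7B, which returns material from late endosomes to the Golgi, had 12.92 and 13.14 in polysomal and 13.29 and 13.05 in total RNA. The lowest sample was the untreated polysomal one and the highest the untreated total one, giving -0.37 untreated and 0.09 with ATO. RAB4A, of rapid recycling from early endosomes, had 10.82 and 10.56 in polysomal and 10.90 and 10.68 in total RNA, and stood at -0.08 and -0.12. RAB5A, the fusion switch of early endosomes, stood at 0.09 and 0.20.

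The remaining GTPases covered other routes. RAB29, which recruits the kinase LRRK2 to Golgi and lysosome membranes, had 9.65 and 9.20 in untreated and ATO polysomal RNA and 9.06 and 9.15 in total RNA. Its untreated polysomal sample stood apart from the other 3, and its differences were 0.59 and 0.05. RAB28, linked to cilia and photoreceptors, had 10.06 and 10.05 in polysomal and 9.61 and 9.84 in total RNA, with differences of 0.45 and 0.21. RAB3B, a RAB of regulated exocytosis, had 9.20 and 9.11 in polysomal and 8.93 and 9.16 in total RNA, with differences of 0.27 and -0.05. ARF5, a Golgi ARF, had 14.99 and 14.80 in polysomal and 14.62 and 14.44 in total RNA, and stood at 0.37 and 0.36. ARF4 (0.21, 0.07), RAB13 of surface delivery (0.13, 0.17), RAB10 of exocytosis (0.05, 0.16) and RAB23 of Hedgehog signalling (0.08, 0.19) were near the median of all genes. With centred samples RAB5A, RAB10, RAB23, RAB29, ARF4 and RAB7B, like RAB6B, turned below 0 in at least 1 state. RAB13 moved to -0.06 and 0.00.

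Of the translocon and SNARE genes, SEC62, SEC22B and SEC22C lay above the median of all retained genes in both states, and SEC22A and SEC63 below it. SEC62, a translocon subunit, had 12.79 and 12.93 in untreated and ATO polysomal RNA and 12.35 and 12.18 in total RNA. It was higher in polysomal than in total RNA, by 1.36-fold in untreated cells (0.44) and 1.68-fold in ATO cells (0.75). SEC63, its partner in translocation, had 12.83 and 12.98 in polysomal and 12.92 and 13.23 in total RNA, and stood at -0.09 and -0.25. The partners thus lay on opposite sides of 0 in both states.

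SEC22B, a SNARE of transport between ER and Golgi, had 14.10 and 14.12 in polysomal and 13.61 and 13.50 in total RNA, with differences of 0.49 and 0.62. SEC22C, a related protein of the early secretory route, had 10.71 and 10.43 in polysomal and 10.14 and 10.00 in total RNA, with differences of 0.57 and 0.43. SEC22A had 10.12 and 9.81 in polysomal and 9.94 and 9.74 in total RNA, with 0.18 and 0.07. All 3 lay above 0 in both states, where 57.9% of all retained genes did, although SEC22A turned to -0.01 and -0.10 with centred samples.

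A second probe set carried the symbol of 4 members, without an Entrez identifier. For SEC22B it gave 0.73 and 0.59, for RAB28 0.58 and 0.48 and for RAB2A 0.40 and 0.19 in polysomal against total RNA, the same sign as the probe set used. For RAB43 it gave -0.21 and -0.32, the opposite sign, at values of 3.80 to 4.14. In total RNA the ATO difference of the second probe set was 0.22 for SEC22B, -0.12 for RAB28 and 0.13 for RAB43. Those signs are opposite to the probe set used, while RAB2A had 0.31 beside 0.00. In polysomal RNA the sign held for SEC22B and RAB28 and turned for RAB2A and RAB43. The ratio change turned for SEC22B (-0.14) and RAB43 (-0.11) and kept its sign for RAB28 and RAB2A. Of the second probe sets, only that of SEC22B reached the filter level. Probe sets naming a family gene together with another gene numbered 3 and were not used.

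**Figure D2:**
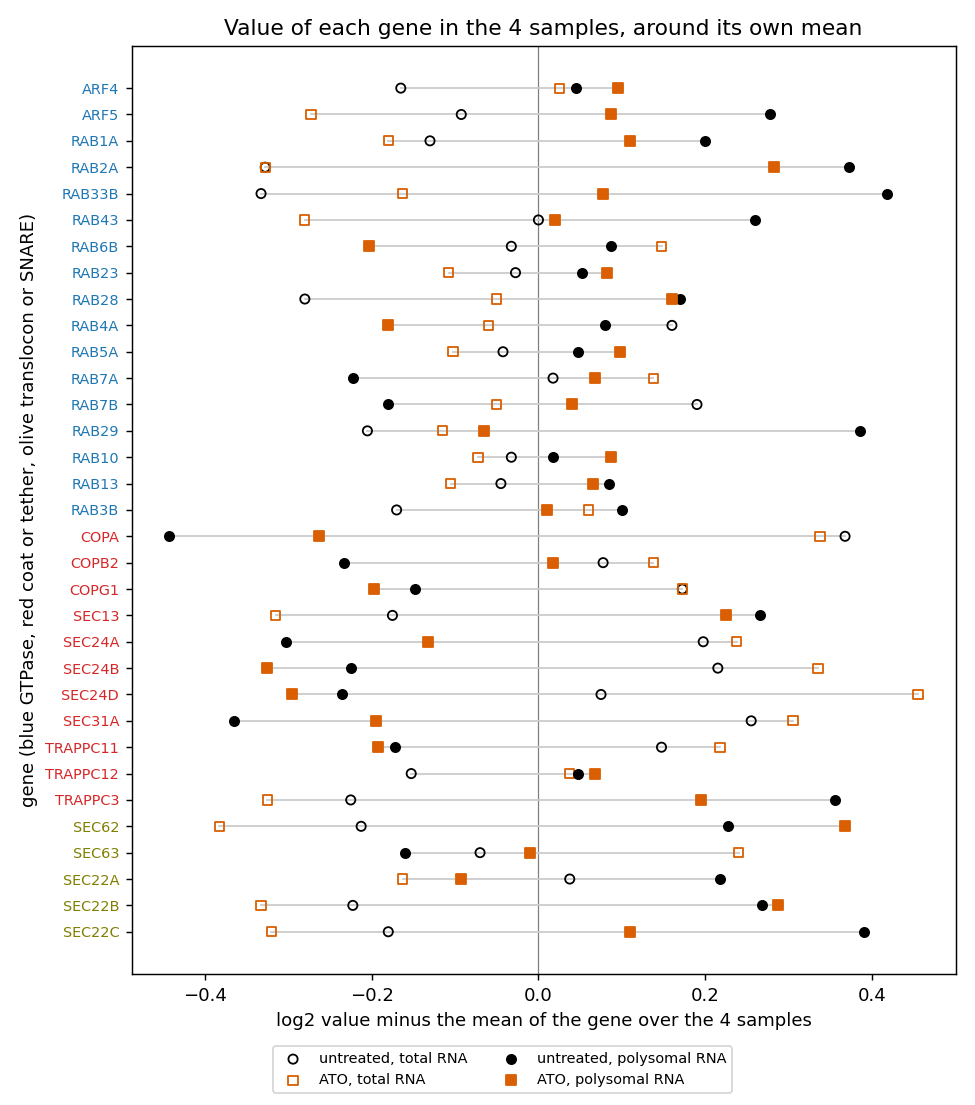
Value of each of the 33 retained genes in the 4 samples (log2, horizontal axis), each set against the gene's own mean so that levels of different genes are not compared. Filled symbols are polysomal and open symbols total RNA, circles untreated and squares ATO. For COPA and SEC31A both polysomal samples lie left of both total samples, and for RAB2A, SEC13, SEC62 and SEC22B they lie right of them.

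In total RNA, the comparison of ATO with untreated cells asks how transcript abundance differed. No member passed 1.5-fold in either direction, where 0.103% of all retained genes were higher and 0.361% lower. In bulk RNA, fewer cells carrying a transcript and less of that transcript per cell cannot be told apart. The GTPases had a median of -0.04 and the coat and tether genes one of 0.05, beside -0.02 over all genes. SEC24D was highest among members at 0.38, followed by SEC63 at 0.31, RAB28 and RAB3B at 0.23 each, and ARF4 and TRAPPC12 at 0.19 each. RAB43 (-0.28), RAB7B (-0.24), RAB4A (-0.22), SEC22A (-0.20) and ARF5 (-0.18) were lowest. The COPI genes were near 0, with COPA at -0.03, COPG1 at 0.00 and COPB2 at 0.06.

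In polysomal RNA no member passed 1.5-fold with ATO either, beside 0.258% of all genes higher and 0.877% lower. The median was -0.09 for the GTPases, -0.02 for coat and tether genes and -0.02 for all genes. RAB29 (-0.45) and RAB33B (-0.34) were lowest, followed by SEC22A (-0.31), RAB6B (-0.29), SEC22C (-0.28) and RAB4A (-0.26). All 5 ER-to-Golgi and Golgi RABs were below 0, where 2046 of 3876 retained genes were. The median of the 5 was -0.24, although RAB2A moved from -0.09 to 0.01 when its probe sets were averaged. RAB7A (0.29), COPB2 (0.25), RAB7B (0.22) and COPA (0.18) were highest, with SEC24A and SEC31A at 0.17 each.

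**Figure D3:**
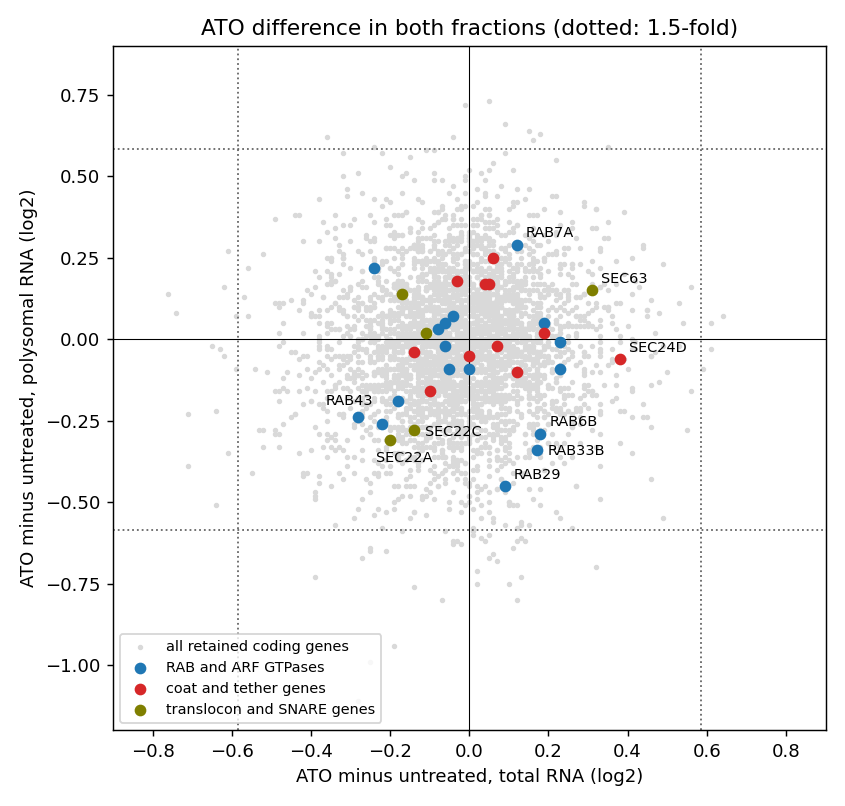
ATO minus untreated in total RNA (horizontal axis, log2) and in polysomal RNA (vertical axis, log2), with all 3876 retained genes in grey and the 33 members coloured. No member lies beyond the dotted 1.5-fold lines, and SEC24D (0.38) and RAB29 (-0.45) are the outermost members on the horizontal and vertical axes.

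The ATO differences of total and polysomal RNA share no sample. Of the 33 members 7 were above 0 in both fractions and 9 below, which is 21.2% and 27.3%, beside 21.3% and 29.9% of all retained genes. Among the 9 were RAB4A, RAB43, ARF5, SEC22A and SEC22C, and the ATO total value of RAB43, 7.62, lay under the filter level. Among the 7 were SEC63 (0.31, 0.15) and RAB7A (0.12, 0.29).

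The change of the polysomal/total ratio with ATO asked which transcripts shifted on or off polysomes beyond their abundance. No member passed 1.5-fold, beside 1.60% of all genes higher and 2.01% lower. Among GTPases RAB29 (-0.54), RAB33B (-0.51), RAB6B (-0.47) and RAB3B (-0.32) had the largest decreases and RAB7B (0.46) the largest increase. Among coat genes SEC24D stood at -0.44 and SEC24B at -0.22, while COPA (0.21) and COPB2 (0.19) were highest. SEC62 had 0.31. The median was -0.04 for GTPases, -0.05 for coat and tether genes and 0.00 for all genes, and the size of the change had a median of 0.13 over members against 0.17 over all genes. This ratio uses all 4 samples, and RAB29 and RAB33B, high in untreated polysomal RNA, enter it through that same sample.

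Below the filter were 13 members, 9 GTPases and 4 coat and tether genes. RAB17, an epithelial RAB, lay nearest to the filter with a mean of 7.53, and RAB6C came next with 7.28. RAB6C is a near-identical copy of RAB6A, so its probes may read both. RAB32, of melanosomes and other lysosome-related organelles, had 7.10 and 6.98 in untreated and ATO polysomal RNA and 6.25 and 6.54 in total RNA. RAB24, a RAB linked to autophagy, had 6.38 and 6.51 in polysomal and 6.15 and 5.70 in total RNA. RAB25, RAB42, RAB44, RAB3C and RAB19 had means of 3.67 to 5.75. Nearest to the filter on its upper side were RAB43 and RAB33B, with means of 7.90 and 8.11.

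Other genes of membrane traffic were described from lists drawn up beside the members, with 105 retained genes in all. The counts past 1.5-fold in these lists stand beside 16.2% (higher) and 4.72% (lower) of all retained genes without ATO, and 14.7% and 3.92% with it. They were taken on the deposited scaling only. With each sample centred on its median the untreated shares became 6.04% and 9.88%, and the lists were not recounted so. Cargo receptors and COPII accessory genes had medians of 0.65 untreated, the highest of the lists in that state, and 0.31 with ATO, where 3 other lists stood higher. Of their 11 retained genes, untreated cells had 6 past 1.5-fold on the higher side, above the background share, and 2 on the lower side. ATO cells had 2, near the background share, and 1. TMED9, a p24 cargo receptor, had 0.98 and 0.84, and PREB, the exchange factor that loads SAR1 with GTP to start the COPII coat, had 0.80 and 0.57. TFG, which organises COPII at exit sites, was low at -0.76 and -0.68, and MIA3, which exports collagen, at -0.63 and -0.25. The GTPase SAR1B itself stood at 0.70 in each state. It belongs to the list of ARF regulators and ARF-like genes, with medians of 0.26 and -0.04 over 15 genes, of which 2 were over 1.5-fold higher untreated and 3 with ATO, near the 16.2% and 14.7% of all retained genes, and 0 lower.

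RAB activators had medians of 0.43 and 0.32 over 8 genes, with 1 over 1.5-fold higher and 1 lower untreated, and 3 and 0 with ATO. CCZ1B, part of the activator of RAB7 and a near-identical copy of CCZ1, stood at 0.62 and 0.80. DENND4C, an activator of RAB10, stood at -0.72 and -0.06, and its total RNA value was 0.59 lower with ATO. RAB inactivators had 0.18 and 0.04 over 13 genes, with 0 higher and 1 lower untreated and 2 and 0 with ATO. TBC1D31 was lowest (-0.96, -0.36) and RABGAP1L highest in ATO cells (0.36, 0.80). Genes of RAB lipid attachment and recycling had 0.40 and 0.44 over 7 genes, of which 1 was over 1.5-fold higher, YIPF1 with ATO (0.54, 0.68), and none lower. RAB effectors had 0.15 and 0.12 over 9 genes, none past 1.5-fold, with MLPH at -0.56 and -0.21 and RUFY3 at 0.47 and 0.12. The untreated polysomal value of MLPH, 7.63, lay under the filter level.

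SNAREs and their recycling factors had medians of 0.42 in each state over 15 genes, with 4 over 1.5-fold higher and 2 lower untreated, beside 16.2% and 4.72% of all retained genes, and 3 and 2 with ATO, beside 14.7% and 3.92%. The SNAREs YKT6 (0.70, 0.97), VAMP5 (0.56, 1.18) and SNAP47 (1.01, 0.42) were high. For SNAP47 both total values, 7.45 untreated and 7.68 with ATO, lay under the filter level. SCFD2 (-0.63, -0.71) and VPS45 (-0.59, -0.84), of the Sec1/Munc18 family that guides SNARE pairing, were low. The multisubunit tethers had -0.03 and 0.00 over 15 genes, with 1 higher and 2 lower untreated and 0 and 2 with ATO. The exocyst subunits EXOC1 (-0.82, -0.95) and EXOC4 (-0.68, -0.61) were the low ones, and TGFBRAP1 (0.68, 0.28) the high one. Clathrin, adaptor and retromer genes had 0.09 and 0.05 over 12 genes, with 5 higher untreated, 4 with ATO, and 0 lower, beside 16.2% and 14.7% of all retained genes higher and 4.72% and 3.92% lower. The clathrin light chains CLTA (0.86, 0.81) and CLTB (0.71, 0.97) and the small adaptor subunit AP1S1 (0.98, 0.72) were high, and AP3B1, a large adaptor subunit, stood at -0.24 and -0.45.

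**Figure D4:**
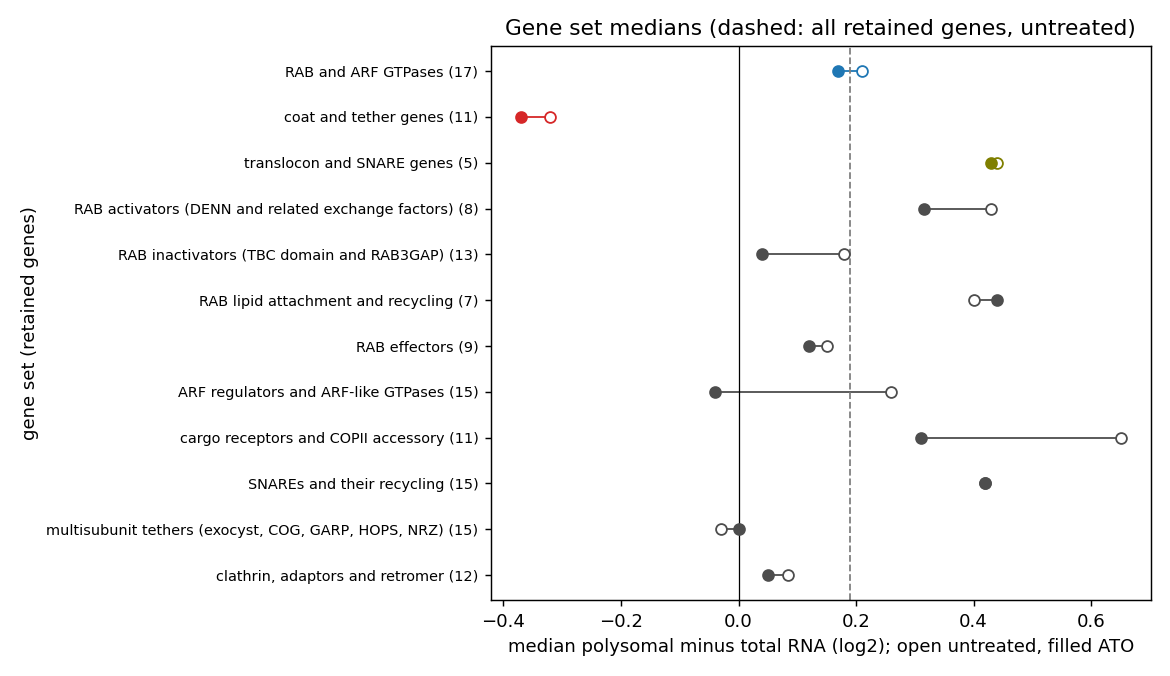
Median polysomal minus total RNA (log2, horizontal axis) of the member classes (coloured) and of the other gene lists of membrane traffic (grey), with the number of retained genes in brackets. Open points are untreated and filled points ATO cells, the 2 coinciding for SNAREs at 0.42, and the dashed line is the median of all retained genes in untreated cells. The coat and tether genes have the lowest medians of the sets drawn, at -0.32 and -0.37.

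With ATO these lists held few genes past 1.5-fold. In total RNA DENND4C and VPS50 (-0.62), a subunit of an endosomal tether, were over 1.5-fold lower of the 105 genes, beside 0.361% of all retained genes, and none was higher, beside 0.103%. In polysomal RNA none passed, beside 0.258% higher and 0.877% lower. Of the ratio changes, DENND4C (0.66), TBC1D31 (0.60) and VAMP5 (0.62) were over 1.5-fold higher and ASAP3 and SNAP47 (-0.59 each) lower, beside 1.60% and 2.01% of all retained genes. The change of SNAP47 rests on total values under the filter level.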

How the data were processed

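LN229 total and polysomal RNA was profiled in 4 samples, 1 per group. Deposited log2 values, from 2.16 to 19.56, were used unchanged. They were made with Affymetrix Expression Console, per the submitters' processing notes, whose version, summary, normalization and build the sources used here do not give. The platform annotation gave 1 symbol to 16127 of 65528 probe sets, several to 419 and none to 48982. Coding genes were typed through the Entrez identifier in the RefSeq table of GRCh38.p14, 7940 probe sets of 7749 genes. Probe sets covered chromosomes 1 to 8 and part of 9; family genes elsewhere were not analysed here. Differences, medians and counts were computed with Python 3.11.15, pandas 2.3.3 and statsmodels 0.14.6 over all genes past the filter. No statistical test was made, each group being a single sample. The steps were tested on simulated data. Every member could be named. Values in every sample were given for the 24 retained members that passed 1.5-fold or were among the 2 highest or lowest of their class in a comparison. From the other lists, genes past 1.5-fold or among the 2 highest or lowest were named. Members and lists were chosen with earlier results of these data known. Alternatives covered scaling, filter, offset, threshold, probe set choice, a loess trend and class membership. A planned comparison with protein length was not run.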

Additional observations from a re-analysis of the deposited data

Results flagged for a closer look

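The following differences had opposite signs in the 2 states or fractions. None of these differences of sign was tested, since each group holds 1 sample. Opposite signs of polysomal against total RNA in untreated and ATO cells were found for 3 of 33 members, RAB3B, RAB6B and RAB7B, beside 16.6% of all retained genes. Opposite signs of the ATO difference in total and polysomal RNA were found for 15 of 33, beside 44.9% of all retained genes.

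The difference of the 2 is given for each, as the change of the polysomal/total ratio with ATO. It was -0.54 for RAB29, -0.51 for RAB33B, -0.47 for RAB6B, -0.32 for RAB3B and -0.24 for RAB28. It was 0.46 for RAB7B and 0.11 each for RAB5A, RAB10 and RAB23. Of coat and tether genes it was -0.44 for SEC24D, -0.22 for SEC24B, -0.09 for TRAPPC11 and 0.21 for COPA. For SEC62 it was 0.31 and for SEC22B 0.13, although the second probe set of SEC22B gave -0.14. The class medians of the ATO difference also had opposite signs in the fractions. For coat and tether genes the median of ATO minus untreated was -0.02 in polysomal and 0.05 in total RNA, -0.07 apart. For translocon and SNARE genes it was 0.02 and -0.14, which is 0.16 apart. These gaps between medians are not the median ratio changes, which were -0.05 and -0.11.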

How the results depend on the processing

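The difference between the GTPase and the coat and tether median kept its sign in polysomal against total RNA in both states under the 8 settings run on it. From 0.53 in untreated cells it became 0.41 with the translocon and SNARE genes counted as coat genes, and from 0.54 in ATO cells it became 0.36 so, and 0.30 with no filter. Counts past 1.5-fold depended on the scaling. Centred samples left 0 members higher in each state in place of 3, beside 6.04% of all retained genes untreated and 6.27% with ATO. They made 4 lower in untreated cells in place of 2, beside 9.88% of all retained genes. Removing a loess trend over mean level gave 1 higher and 4 lower untreated, beside 6.48% and 9.31% of all retained genes. It gave 0 higher with ATO, beside 5.73%. Quantile normalization gave 1 higher with ATO, beside 11.8% of all retained genes. The filter at the 75th percentile gave 1 of 20 members higher untreated, beside 17.9% of the genes it kept. At 2-fold 0 members passed in either direction in both states. Of all retained genes 1.5% were higher and 0.671% lower untreated, and 1.29% and 0.516% with ATO. With no filter 1 of 46 members, TRAPPC3L, passed as a higher ratio change with ATO (0.68), beside 3.94% of all coding genes. COPA was over 1.5-fold lower in both states under the 8 settings other than the 2-fold threshold. With ATO, the median difference between the classes lay from -0.09 to 0.01 in polysomal RNA and from -0.07 to 0.04 for the ratio change, so its sign depended on the setting. All settings reuse the same 4 samples. No paired analysis was possible because the groups compared share a single replicate number, with 1 sample each. A model over both states that takes fraction and treatment as additive was not run. Signal over background was not given, so values near the filter are the least certain.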
